A study of Petromyzon marinus with 12 samples.

Results

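MYO3A, the gene for a class III unconventional myosin, was followed through endostyle development in the sea lamprey, Petromyzon marinus. The endostyle is the mucus-secreting groove of the larval pharynx from which the lamprey thyroid later forms. Total RNA of the tissue had been sequenced at 4 stages in 3 libraries each, labelled T27 to T30. All were of wild-type genotype, and the labels give neither the staging scheme nor whether animals were pooled. The gene was 1 of 21967 in the count table and was chosen by its CPM in these same libraries, as an abundant gene with a sharp rise between T29 and T30. Its levels are therefore given as a description, with no test. The table lists it under a locus number, LOC116938706, and the symbol comes from RefSeq's gene table by gene ID.

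Class III myosins are motor proteins that carry a protein kinase domain in front of the motor and walk towards the tips of actin bundles. In mammals MYO3A lies at the tips of stereocilia and filopodia, to which it carries the actin bundling protein espin. Changes in the human gene cause a late hearing loss, and the fly member of the class, ninaC, acts in photoreceptors. The lamprey row lies on the plus strand of sequence NC_046072.1 of the kPetMar1 assembly, from 14364493 to 14412419. Its annotated exons merge into 38 blocks with a summed length of 10184 bp, from a shortest block of 47 bp to a last block of 2644 bp, with a median of 126 bp. Reads were counted over these exons, and 0 other annotated genes overlapped the span.

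MYO3A transcripts were present at every stage and were far more abundant at T30. Levels are in CPM, read counts scaled to a common library size by the TMM method. The T27 libraries held 26.5, 27.6 and 23.2 CPM, on 880, 890 and 693 counts. The T28 libraries held 33.2, 34.9 and 31.2 CPM and the T29 libraries 41.0, 44.8 and 44.7 CPM. At T30 the level was 715, 480.1 and 866 CPM in replicates 1, 2 and 3, on 26545, 15498 and 24932 counts. Each stage lay wholly above the one before it.

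**Figure D1:**
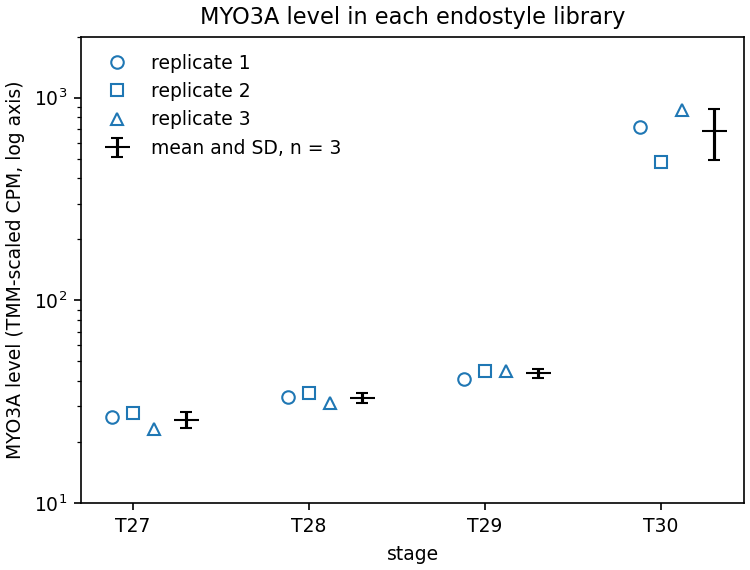
MYO3A level (TMM-scaled CPM, log axis) in each of the 12 libraries by stage; open symbols are replicates, and the bar beside them is the mean with its SD (n = 3). The T30 libraries, at 480.1 to 866 CPM, stand apart from the other stages, which lie between 23.2 and 44.8 CPM.

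In stage means the order was T27, T28, T29 and T30, at 25.8 ± 2.34, 33.1 ± 1.84, 43.5 ± 2.16 and 687 ± 195 CPM (SD, n = 3). The differences between neighbours in this order were larger than the SD of either stage. All libraries of the later stage lay above all of the earlier one, as they did for 21.7% of the 16526 genes tested at T28 against T27, 17.7% at T29 against T28 and 31.7% at T30 against T29. The ratio of means was 1.28 from T27 to T28 and 1.32 from T28 to T29, and 15.8 from T29 to T30. Between single libraries of T30 and T29 the ratio ran from 10.7 to 21.1. By ratio of means at that last step MYO3A ranked 96 of 16511 genes with a level at T29. Since the gene was chosen for its rise at this step, that rank follows from the choice. Genes near the floor are ranked with the rest. With the whole span from T27 to T30 the ratio was 26.7, rank 211 of 16496, and all T30 libraries lay above all T27 libraries for 35.9% of the genes tested. In bulk tissue, more cells that express a gene and more of its RNA per cell cannot be told apart.

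The gene moved from the middle of the range of levels to near its top. By CPM it ranked 6831 of 16526 genes at T27, 5912 at T28, 4832 at T29 and 170 at T30. Long genes gather more reads per transcript. Per kilobase of exon the level was 2.53 ± 0.229 at T27, 3.25 ± 0.180 at T28, 4.27 ± 0.212 at T29 and 67.5 ± 19.1 CPM per kb at T30 (SD, n = 3). On that scale its rank at T30 was 842, and it had been 10598 at T27.

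Relative to its mean, the MYO3A level differed more among the T30 libraries than among those of any other stage. The SD was 28.3% of the mean at T30, against 9.07%, 5.55% and 4.97% at T27, T28 and T29. Replicate 2 was the low one. On the log2 scale MYO3A lay 0.71 below the mean of replicates 1 and 3 (−0.71), and 3.67% of the other genes tested lay lower still. Without T30 replicate 2 the T30 mean was 791 CPM and the ratio to T29 was 18.2. The titin gene TTN, of the muscle sarcomere, was also lowest in that library, at 86.4 CPM against 204 and 243 CPM. Long genes were lower there as a class. The median log2 difference of replicate 2 from the mean of replicates 1 and 3 was −0.14 for genes of 8000 to under 16000 bp of exon. For longer genes it was −0.29. The cause of the low MYO3A value in replicate 2 was not tested.

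Exon length moved with the last step. The words rose and fell are used from here on of genes past an adjusted p of 0.05 in edgeR. The median log2 change from T29 to T30 was 0.23 for 1259 genes of 8000 to under 16000 bp of exon and 0.57 for 113 longer genes, against −0.04 for 6121 genes of 2000 to under 4000 bp. Of the class that MYO3A belongs to, 47.4% rose and 20.1% fell (edgeR adjusted p under 0.05), and 1 of the 1259 had a higher ratio of means than MYO3A. Each gene was also centred on its own log2 mean over the 12 libraries. In the T30 libraries the median of genes of at least 8000 bp then lay 0.06 to 0.18 above that of all genes, lowest in replicate 2. In those of T29 the difference was between −0.15 and −0.07. With each library's trend on exon length removed, the MYO3A mean was 613 CPM at T30 and the ratio to T29 was 13.3. In the plot of change by exon length the gene lies far above the medians. It was chosen for its rise at this step, so this, like its place among the 1259, follows from the choice. The part of exon length in its change was not tested.

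**Figure D2:**
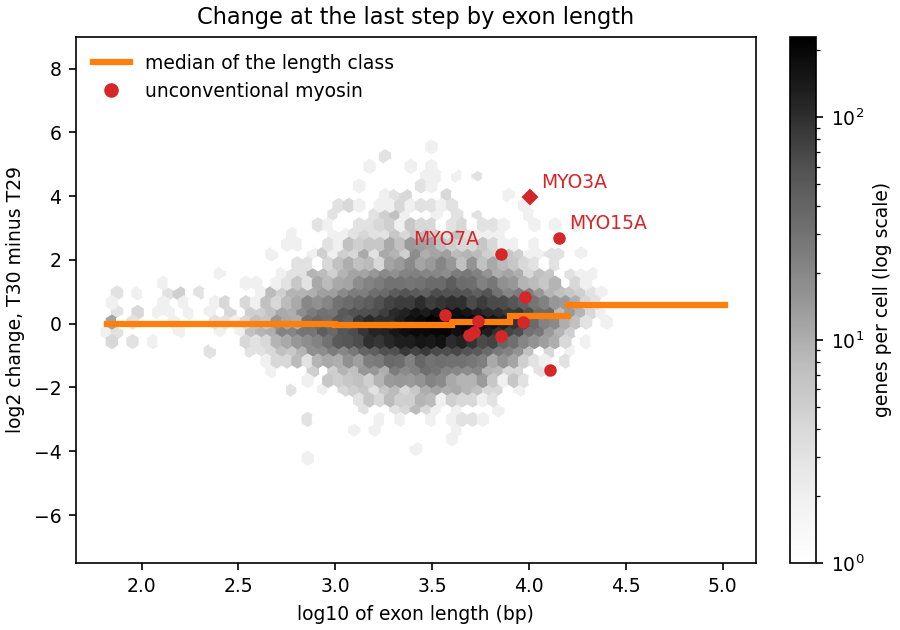
Log2 change from T29 to T30 against the log10 of exon length for the genes tested (grey cells, darker for more genes; 9 genes lie outside the axis). Orange lines are the medians of 6 length classes, red points 11 unconventional myosins, with MYO3A drawn as a diamond from its ratio of means. From 1000 bp on the medians climb from −0.05 to 0.57 with length, and MYO3A, chosen for its rise at this step, sits well above them.

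The other unconventional myosins went different ways at the step at which the MYO3A level changed most. They share its motor, and differ in tail and cargo. Of 25 on the list 12 were matched in the table, MYO3A included, and all 12 passed the filter on low counts. Of the other 11, 3 rose and 4 fell between T29 and T30 by a quasi-likelihood test in edgeR (p-values adjusted after Benjamini and Hochberg), at a step where 60.3% of all genes tested changed, 30.3% higher and 30.1% lower. Their median log2 change was 0.06, against 0.02 for all genes tested.

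MYO15A, the stereocilium-tip myosin that mammalian hair cells need for normal bundle height, rose the most of the 11. Its libraries held 42.4, 40.3 and 31.5 CPM at T29 and 250.9, 203.3 and 289.5 CPM at T30, with no overlap. The rise was 6.51-fold (log2 2.70, SE 0.15, edgeR adjusted p = 2.03e-09). As for MYO3A, replicate 2 was the lowest of the T30 libraries. MYO7A, a myosin of stereocilia and the Usher protein complex, went from 22.3, 20.2 and 8.81 CPM to 91.1, 64.8 and 80.6 CPM. It rose 4.60-fold (log2 2.20, SE 0.25, edgeR adjusted p = 3.78e-06). MYO9A, a myosin with a GTPase-activating tail, rose 1.78-fold, from 27.7 ± 7.96 to 49.2 ± 4.60 CPM (SD, n = 3).

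MYO6, the myosin that moves towards the base of actin bundles and serves endocytosis, was the most abundant of the family at each stage per kilobase of exon. Its mean was 92.4 CPM per kb at T29 and 98.9 at T30, where MYO3A had reached 67.5 CPM per kb and MYO15A 17.4. MYO6 did not pass the test at the last step (log2 0.10, SE 0.085, edgeR adjusted p = 0.334), and had risen at both earlier steps. At T27 the MYO3A level per kilobase had lain near those of MYO5A, at 2.48, and MYO9A, at 2.997 CPM per kb.

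Of the class I myosins, which link actin to membranes, MYO1C and MYO1D fell by 0.40 and 0.36 on the log2 scale at T30 (SE 0.08 for each). MYO16 fell from 2.26 ± 0.194 to 0.827 ± 0.297 CPM (SD, n = 3). The organelle motor MYO5A and the mitochondrial myosin MYO19 had log2 changes of 0.06 and 0.26, and MYO15B of −0.25, none past the threshold. The signs of the MYO5A and MYO19 values are not firm: without T29 replicate 3 the MYO5A value was −0.066 and with the length trend removed −0.14, and without T30 replicate 1 the MYO19 value was −0.023.

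**Figure D3:**
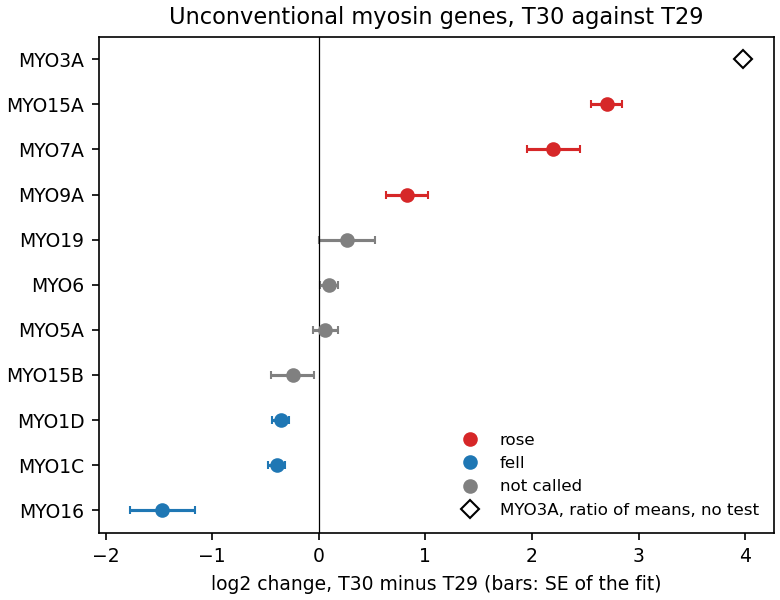
Log2 change from T29 to T30 of 10 of the other unconventional myosins with the standard error of the edgeR fit (red rose, blue fell, grey not called); the open diamond is MYO3A from its ratio of means, with no test. MYO15A and MYO7A, at 2.70 and 2.20, come next to MYO3A at 3.98, and MYO16 is lowest at −1.47.

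As a share of the summed CPM of the 12 matched myosins, MYO3A took between 4.52% and 5.64% in the libraries of T27 to T29. At T30 it took 39.3%, 32.9% and 43.0% in replicates 1, 2 and 3. Per kilobase the T30 shares were 30.2%, 24.3% and 33.8%. The sum of the other 11 went from 748 to 827 CPM at T29 to 978 to 1147 CPM at T30. At the earlier steps 4 of the 11 rose and 0 fell from T27 to T28, where 26.0% of all genes changed (14.3% higher, 11.8% lower), and 3 rose and 0 fell from T28 to T29, where 13.4% did (7.86% higher, 5.54% lower). Both counts were the same with DESeq2, and at either step 0 of the 11 were lower at an unadjusted p under 0.05. MYO6 rose at both. Between T27 and T30, 6 of the 11 rose and 3 fell, where 68.8% of all genes changed (34.8% higher, 34.1% lower).

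Few of the known partners of class III myosins could be read. Of 11 genes listed as partners or calmodulins, which serve as myosin light chains, 4 were matched and all 4 passed the filter. ESPN, the espin that MYO3A carries, was at 48.1, 49.2 and 44.6 CPM at T29 and at 98.1, 95.3 and 83.0 CPM at T30, with no overlap. It rose 1.95-fold (log2 0.96, SE 0.11, edgeR adjusted p = 2.40e-06). PCDH15, a tip-link cadherin of hair bundles, fell by 0.59 (SE 0.15), from 7.81 ± 1.52 to 5.18 ± 0.330 CPM. MORN4, which binds the MYO3A tail in mammals, was at 16.4 ± 2.18 and 15.01 ± 2.74 CPM (SD, n = 3), and the stages overlapped. CALML4, a calmodulin-like light chain of brush border myosin, had a log2 change of 0.26 (SE 0.13, edgeR adjusted p = 0.112).

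Listed genes of actin-based protrusions (stereocilia, microvilli and filopodia) were more often higher than lower at T30. The list was chosen with earlier results of these data known. Of 62 listed, 21 were matched and all 21 passed the filter. Between T29 and T30 12 rose and 2 fell, beside 30.3% and 30.1% of all genes, and the median log2 change was 0.41 against 0.02 for all genes. With the exon length trend removed 12 rose and 3 fell. ESPN and PCDH15 are counted here too. PTPRQ, a phosphatase of the stereocilium base, went from 14.5, 15.8 and 9.94 CPM to 130, 115 and 113 CPM. That was an 8.87-fold rise (log2 3.15, SE 0.20, edgeR adjusted p = 8.82e-09). Unlike MYO3A, PTPRQ had fallen from T27 to T28, by 0.79 on the log2 scale.

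Among the others that rose, USH1G and PDZD7 belong in mammals to protein complexes that anchor stereocilia. USH1G, the scaffold SANS, rose 2.79-fold, from 25.7 ± 1.96 to 71.8 ± 7.40 CPM (SD, n = 3). The scaffold gene PDZD7 rose from 0.708 to 2.56 CPM. LOXHD1, a stereocilium membrane protein, rose from 24.2 to 59.2 CPM, and CDHR2, a cadherin that links the tips of microvilli, from 129 to 289.7 CPM. FSCN1, a filopodial bundling protein named because it was the other gene to fall, had a log2 change of −0.95 (SE 0.25). Between T28 and T29 0 of the 21 passed the threshold with edgeR or DESeq2, where 13.4% of all genes did with edgeR, and 3 were higher and 0 lower at an unadjusted p under 0.05 in edgeR.

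**Figure D4:**
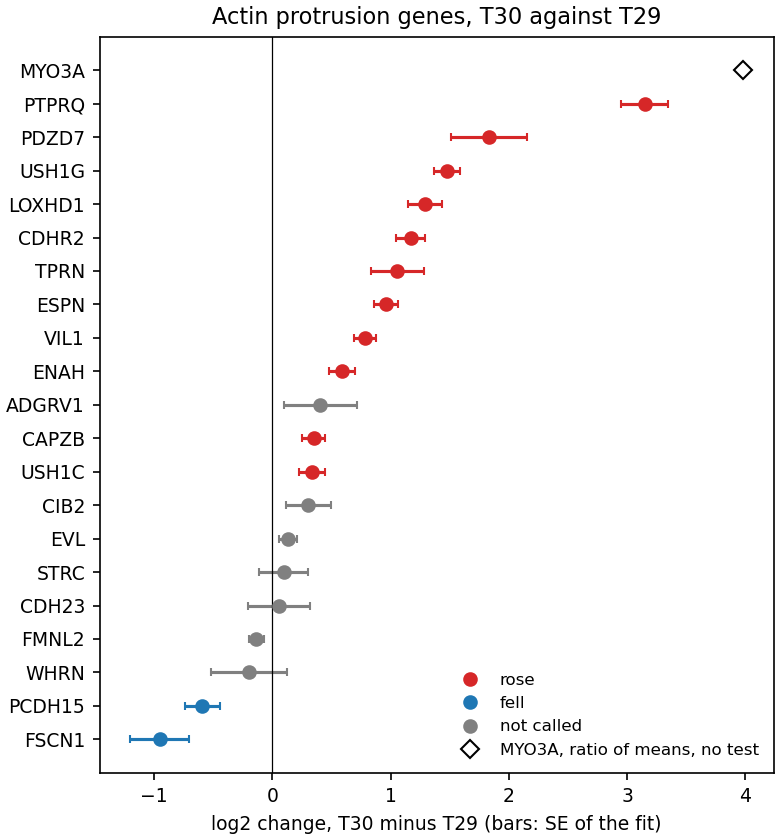
Log2 change from T29 to T30 of 20 of the matched actin protrusion genes with the standard error of the edgeR fit (red rose, blue fell, grey not called), with MYO3A from its ratio of means as an open diamond. PTPRQ at 3.15 is nearest to MYO3A at 3.98, and PCDH15 and FSCN1 are at −0.59 and −0.95.

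The kinase domain of MYO3A belongs to the STE20 group, of which 5 of 28 other listed members were matched, and all 5 passed the filter. STK10 and PAK4 rose by 0.36 and 0.32 on the log2 scale at the last step, and OXSR1 and STRADA fell by 0.41 and 0.27. STK25 was at 237 ± 11.2 and 229 ± 10.9 CPM (SD, n = 3). These changes were small beside the MYO3A ratio, and 60.3% of all genes changed.

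Markers of cells in which class III myosins are known, and of cells that the dissection could hold, were read beside MYO3A. Of 19 genes listed for hair cells or the membranes over them, 6 were matched and all 6 passed the filter. At T30 3 rose and 2 fell, where 30.3% of all genes rose and 30.1% fell. The sum of the 6 went from 54.8 to 64.1 CPM at T29 to 92.4 to 105 CPM at T30. Most of that difference was in LOXHD1, with means of 24.2 CPM at T29 and 59.2 CPM at T30. LOXHD1, the tectorial membrane gene TECTA (8.70 to 17.1 CPM) and the transduction channel gene TMIE (2.71 to 6.85 CPM) rose. The synaptic gene OTOF fell from 18.9 ± 3.91 to 10.8 ± 3.64 CPM. TECTB, also of the tectorial membrane, fell from 0.503 CPM at T29 to 0.0552 CPM at T30. LOXHD1 is counted among the protrusion genes as well. The hair cell regulators ATOH1 and POU4F3 and the channel genes TMC1 and TMC2 were on the list and were not matched.

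Photoreceptor genes were near the floor. The 7 matched of 29 summed to between 2.64 and 4.34 CPM at T30 and between 3.98 and 5.79 CPM at T29, and 3 of the 7 passed the filter. Of the 3, 2 fell, where 30.1% of all genes did, and 0 rose with edgeR or DESeq2 or at an unadjusted p under 0.05. CNGB1, a cyclic nucleotide channel subunit, fell from 3.89 to 2.29 CPM, and RCVRN, or recoverin, from 0.707 to 0.0386 CPM. Of 13 neuron markers 5 were matched and passed the filter, and 1 rose and 2 fell, beside 30.3% and 30.1% of all genes. GAD1 rose from 7.002 to 10.9 CPM, and SLC17A6 and RBFOX3 fell by 1.11 and 0.47 on the log2 scale. The GAD1 call was lost without T29 replicate 3 or T30 replicate 3 (edgeR adjusted p = 0.0548 and 0.0655) and with the length trend removed (0.0666). The RBFOX3 call was lost without T29 replicate 1, T30 replicate 2 or T30 replicate 3 (0.107, 0.132 and 0.0822), so that without T30 replicate 3 only 1 neuron gene was called.

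The summed level of muscle genes was higher at each stage than at the one before. The 8 matched of 17, all past the filter, summed to 112 to 156 CPM at T27, 191 to 325 CPM at T28 and 465 to 603 CPM at T29. At T30 their sum was 1259, 702 and 1031 CPM in replicates 1, 2 and 3, lowest in replicate 2, as MYO3A was, and highest in replicate 1, where MYO3A was highest in replicate 3. At T27, T28 and T29 the muscle sum was also lowest in replicate 2, the library in which MYO3A was highest at each of those stages. That MYO3A order rests on small differences from the next library: 27.6 against 26.5 CPM, 34.9 against 33.2 CPM and 44.8 against 44.7 CPM. Between T29 and T30 5 of 8 rose and 0 fell with edgeR (4 and 0 with DESeq2, and 0 lower at an unadjusted p under 0.05), where 30.3% of all genes rose and 30.1% fell. Without T29 replicate 2 or T30 replicate 1, 1 of the 8 fell. Among those that rose were TCAP, a cap protein of the sarcomere, 5.26-fold, NEB, or nebulin, 2.97-fold, and ACTN2, or sarcomeric actinin, 2.39-fold. TTN rose 2.78-fold, a call lost with the length trend removed (log2 0.29, edgeR adjusted p = 0.391). MYOM1 rose 1.82-fold, a call lost with DESeq2 (adjusted p = 0.104) and without T29 replicates 1 or 2 or T30 replicates 1 or 3 (0.0718 to 0.147). From T28 to T29 6 of the 8 rose, where 7.86% of all genes did, a step at which the MYO3A ratio was 1.32. The part of muscle RNA in the MYO3A level was not tested.

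Ciliated cell genes were measured in 13 of 18 cases, all past the filter, and 7 rose and 2 fell at the last step, beside 30.3% and 30.1% of all genes. The axonemal dynein heavy chains DNAH5, DNAH9 and DNAH6 rose 3.28-fold, 2.35-fold and 2.30-fold, the central pair genes CFAP47 and HYDIN 2.13-fold and 1.90-fold, and the axoneme gene CFAP65 1.85-fold. These 6 have exon lengths of 8128 to 19268 bp. SPAG6 and RSPH9, named because they were the pair that fell, have 4188 and 1963 bp and changed by −0.46 and −0.40. With the length trend removed the counts were again 7 and 2. The part of exon length in these changes was not tested. Ciliated cell genes summed to 1028 to 1212 CPM at T29 and 1602 to 1846 CPM at T30.

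The label of the tissue was read against thyroid and endostyle genes, of which 9 of 20 were matched and 8 passed the filter. From T29 to T30 7 of the 8 rose and 0 fell with edgeR and with DESeq2, beside 30.3% and 30.1% of all genes with edgeR, and 0 were lower at an unadjusted p under 0.05. SLC5A5, the iodide symporter, was at 14.3, 17.01 and 14.1 CPM at T29 and at 102, 95.6 and 119 CPM at T30, with no overlap. It rose 6.97-fold (log2 2.80, SE 0.12, edgeR adjusted p = 2.37e-10), the endocytic receptor gene LRP2 4.31-fold, PAX2 2.72-fold, IYD 2.28-fold and HHEX 1.67-fold.

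The genes beside MYO3A on the sequence were read too. Of the 3 nearest on each side, 5 rose and 1 fell from T29 to T30. At that step 60.3% of all genes changed, 30.3% higher and 30.1% lower. FAM221A lies 1614 bp beyond the end of MYO3A on the same strand. Its libraries held 12.9, 14.02 and 13.9 CPM at T29 and 19.9, 22.3 and 28.5 CPM at T30, a 1.73-fold rise (log2 0.79, SE 0.15, edgeR adjusted p = 0.000343). Whether reads past the annotated end of MYO3A add to that count was not tested. JCAD, on the opposite strand, rose by 0.27 on the log2 scale (SE 0.08). The annotated spans of FAM221A and JCAD overlap by 742 bp and no strand option was recorded for the counting, so reads there cannot be told apart.

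On the other side, the nearest gene, LOC116938705, ends 20956 bp before MYO3A and fell from 4.38 ± 0.546 to 2.01 ± 0.242 CPM (SD, n = 3). The next, LOC116938704, 55570 bp away on the minus strand, went from 15.6, 18.1 and 17.9 CPM to 125, 150 and 133 CPM. That was a 7.91-fold rise (log2 2.98, SE 0.12, edgeR adjusted p = 1.01e-10), and T30 replicate 2, the lowest for MYO3A, was the highest here. Neither has a name in the tables used. The remaining pair, one on each side, rose by 0.36 and 1.53 on the log2 scale.

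The genes with the most similar pattern were found by the root mean square difference of log2 CPM over the 12 libraries, each gene centred on its own mean. The median difference over 16525 genes was 1.91, and 39 genes lay below 0.5. Among the 6435 with a symbol the nearest was GLDC, the glycine decarboxylase of the glycine cleavage system, at 0.29. GLDC averaged 2.98, 3.75, 4.47 and 79.3 CPM from T27 to T30. Next came PSTPIP1, an adaptor that binds actin regulators, at 0.36, with 1.31, 1.74, 1.62 and 22.2 CPM. PSTPIP1 was lowest of the T30 libraries in replicate 2, at 15.4 CPM against 24.4 and 26.97 CPM, as MYO3A was, whereas GLDC was lowest in replicate 3.

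SLC5A5 followed at 0.45, and then KY, a muscle protein, at 0.49, KLB, a co-receptor for FGF hormones, at 0.50, and ALDH1L2, a mitochondrial folate enzyme, at 0.52. MYO15A was at 0.584, with ANKDD1B at 0.585, PKD1, or polycystin, at 0.61 and CCDC154 at 0.62. KY and ANKDD1B rest on low levels, with 5.72 and 3.06 CPM at T30. Pearson's r with MYO3A, over 12 libraries that share their stage and depth, was between 0.96 and 0.99 for these 10. Many genes share so broad a pattern, since 1479 of 16525 had an r above 0.9. The highest r among genes with a symbol were those of AFTPH, at 0.998, SLC25A42, at 0.994, and TRPC4, at 0.993, whose ratios of means from T29 to T30 were 1.98, 2.78 and 5.61.

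**Figure D5:**
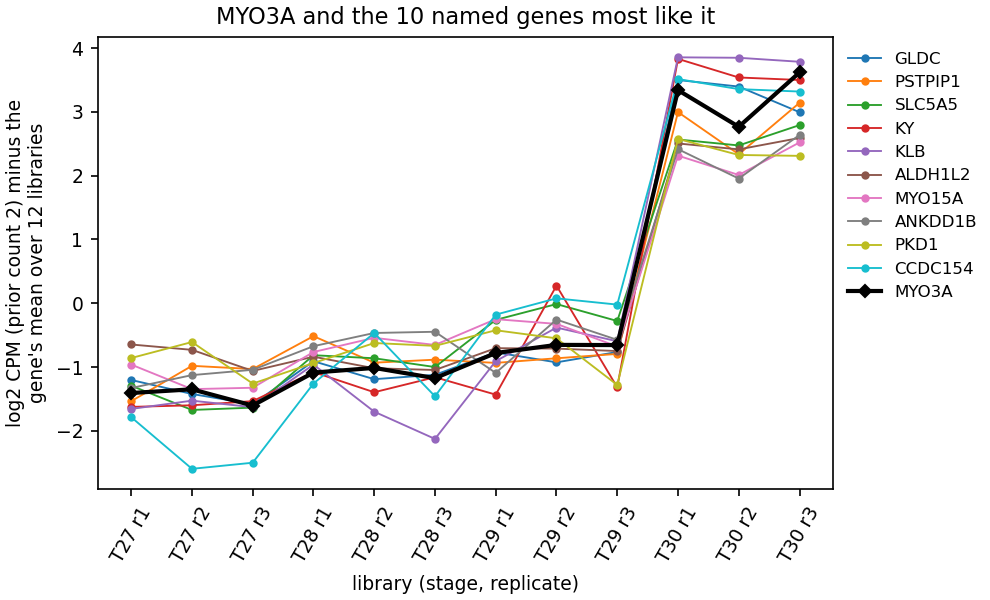
Log2 CPM (prior count 2) minus each gene's mean over the 12 libraries, by library, for MYO3A (black) and the 10 genes with a symbol that differ least from it. No point of T27 to T29 lies above 0.28, and all of T30 lie between 1.95 and 3.86, with CCDC154 and KLB furthest below MYO3A in parts of T27 and T28.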

How the data were processed

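Per the file headers, the authors deposited read counts, not normalized, made with featureCounts 1.6.3 on a kPetMar1 annotation, with no strand or multiple-mapping option recorded. The submitters' processing notes also name Bowtie2 and DESeq2, without settings. Reads shared with near-identical genes are uncertain. Of 13987 locus rows, 688 took a name from RefSeq's table of assembly UKy_Petmar_22M1.pri1.0, used for names alone, so an unmatched gene is not shown to be absent. Library totals ran from 28371140 to 36032488 counts.

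From these counts, edgeR 4.0.16 in R 4.3.3 kept genes by filterByExpr (minimum count 10), 16526 in all, scaled by TMM and fitted a quasi-likelihood model over 12 libraries. P-values were adjusted by Benjamini-Hochberg over all genes tested, with a threshold of 0.05. SEs are the log2 change over the square root of F. The procedure was run on simulated data with few changed genes and the same spread for every gene. These data differ from that, so the run does not show how well the calls hold here. The labels do not say that replicates were separate animals, so the p-values rest on the spread among these libraries, which may be technical. Alternatives were RLE scaling, no filter, DESeq2 1.42.0, fits of only the stages compared, a replicate block and leaving out each library; removal of the exon length trend was chosen after seeing the data. Named genes were every matched unconventional myosin, up to 6 called genes a list with the largest change at the last step, the 3 nearest genes on each side, and the 10 least different and 3 best correlated genes with a symbol. The members and lists were chosen with earlier results of these data known. A deposited cross-species table was not used here. Some genes that are in the counts of a list are not reported here by name.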

Additional observations from a re-analysis of the deposited data

How the results depend on the processing

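The MYO3A mean at each stage moved by less than its SD with other library scalings. Leaving out 1 of 3 libraries cannot move a mean by its SD, so no such comparison is made for it. The T30 mean then ran from 598 to 791 CPM. The ratio of T30 to T29 ran from 13.7 to 18.2 when a T29 or T30 library was left out, and was 16.4 on library totals and 15.8 with RLE. With the exon length trend removed the T29 mean was 45.9 CPM, more than 1 SD from 43.5; it is a change of scale by construction. The count of genes called from T28 to T29, 2215, ran from 1192 to 2395 when a library was left out; it was 1192, 1346 and 1451 without T28 replicates 1, 2 and 3 and 1259 without T29 replicate 1, fits that rest on fewer samples. Neuron markers called at the last step, 3, ran from 1 to 3. Every other total of calls, both directions together, stayed within 1.5 times under the alternatives run. By direction, the 1942 genes lower from T27 to T28 were 1234 to 1266 without replicate 2 or 3 of T27 or T28. Fallen genes of the list for hair cells and the membranes over them went from 2 to 1 in the fit of only the 2 stages. TECTB did not pass the filter there. The 1299 genes higher and 916 lower from T28 to T29 were 745 to 825 and 447 to 641 without 1 of the T28 replicates or T29 replicate 1, and 944 and 573 without T29 replicate 2. Ranked by Pearson's r, 2 of the 10 genes most like MYO3A remained, and 8 to 10 when a library was left out. Values that changed sign were not called in either case: MYO5A, from −0.066 (without T29 replicate 3) to 0.15 when a library was left out and −0.14 with the length trend removed, and MYO19, from −0.023 (without T30 replicate 1) to 0.44; the cause was not tested. Of 55 named genes tested at the last step, 4 lost their call under some alternative in which they were tested. TECTB, which was not tested in the fit of only the 2 stages, is not among the 4.

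Whether the replicate numbers pair the libraries was not settled. Deviations of same-numbered libraries of different stages correlated between −0.29 and 0.24 (median 0.003). Those of differently numbered libraries correlated between −0.18 and 0.24 (median 0.006). The lowest value was for T28 replicate 3 with T29 replicate 3, and the highest for T27 replicate 3 with T29 replicate 3. By mean correlation 6 of 12 libraries were nearest their own number, out of 3 numbers. With a replicate block 9821 genes were called from T29 to T30, against 9973 without it, and the myosin calls were again 7. Genes at a few CPM or less rest on few counts, which limits what is said of photoreceptor markers and TECTB.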
